A study of Homo sapiens with 13 samples.

Results

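The integrin and laminin genes of human embryonic stem cells were followed during differentiation with BMP4. The members are all genes with an Ensembl identifier whose symbol is that of an integrin alpha chain (ITGA), an integrin beta chain (ITGB1 to ITGB8) or a laminin alpha, beta or gamma chain (LAMA, LAMB, LAMC). This gave 38 of the 61541 genes in both count tables: 18 ITGA, 8 ITGB, 5 LAMA, 4 LAMB and 3 LAMC genes. The cells were RUES2, an established human embryonic stem cell line, with a GFP::SMAD4 fusion in all groups. The time series had 7 libraries, a pair for 0 h and single ones for 4, 12, 20, 28 and 42 h, whose labels name 100 ng/mL BMP4, 5 µM IWP2, an inhibitor of Wnt secretion, and RI (ROCK inhibitor). The 0 h labels name the same treatment and were read as cells collected when it started. The dose response at 5 h had 5 libraries with the same BMP4, IWP2 and RI and 0, 10, 30, 100 or 300 nM of LDN-193189 (LDN), which inhibits BMP receptors, and 1 library of untreated cells in mTeSR medium. The untreated label names neither BMP4, IWP2 nor RI, so the parts of these agents in any difference from it cannot be told apart. Each later time and each dose has 1 library, and nothing in the sources states that libraries came from separate cultures. All values come from this 1 line, and the coating of the plates used for RNA-seq is not given in the sources used here.

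Integrins are receptors of 1 alpha and 1 beta chain that join the extracellular matrix to the cytoskeleton. Laminins are trimers of an alpha, a beta and a gamma chain and form the core of basement membranes. Pluripotent stem cells are known for attaching to laminin through integrin alpha6 with beta1, and to vitronectin through integrin alphaV with beta5. Fibronectin is bound mainly by alpha5 with beta1 and by the alphaV integrins.

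CPM, the counts of a gene scaled to a common library total, were computed on library totals of 37957385 to 71333471 counts in the time series and 15600931 (untreated) to 33989998 in the dose response. FPKM, which also divide by gene length, were used wherever genes are compared with each other. Between the 0 h libraries, the log2 ratio had an SD of 0.46 over 15976 genes and of 0.33 over the 27 members tested, and mitochondrial genes took 7.60% of counts in 0 h replicate 1 and 7.89% in the untreated library, against 2.01% to 4.49% in the others. The labelled cell type was present at 0 h, with summed CPM of 7 pluripotency markers of 4970 and 5454, which declined to 1902 at 42 h as the sum of 8 amnion markers went from 22.1 and 26.7 to 4896. Of the 8 amnion markers, 5 rose and 0 fell over time by the test described below, and HAND1 alone was at 2919 CPM at 42 h. Of the 7 pluripotency markers, 6 fell and 0 rose over time by that test. POU5F1, 1 of the 7, was at 1003 and 1721 CPM at 0 h and still at 1145 CPM at 42 h. With rising LDN the amnion sum went from 251 to 25.5, and it was 21.0 in untreated cells. The part of this change of cell type in the results that follow was not tested, and in bulk samples fewer cells of a type and less RNA per cell cannot be told apart.

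Promoter sequences are shown for ITGA6, ITGAV, ITGA5 and LAMB1, 4 of the 6 members called in both trends below. The stretches lie upstream of the gene start on the gene's own strand, as given by RefSeq on GRCh38.p14, and stop before the start of the gene in GENCODE release 44. Capitals mark GGCGCC, a GC-rich element of SMAD1/5, and GGAGCC, a variant of it, searched on both strands. GGCGCC reads the same on both strands, and no match of one overlapped the other in these stretches. They are chr2:172427086-172427335 (+) for ITGA6, chr2:186589806-186590009 (+) for ITGAV, chr12:54419267-54419516 (−) for ITGA5 and chr7:108003214-108003411 (−) for LAMB1.
ITGA6: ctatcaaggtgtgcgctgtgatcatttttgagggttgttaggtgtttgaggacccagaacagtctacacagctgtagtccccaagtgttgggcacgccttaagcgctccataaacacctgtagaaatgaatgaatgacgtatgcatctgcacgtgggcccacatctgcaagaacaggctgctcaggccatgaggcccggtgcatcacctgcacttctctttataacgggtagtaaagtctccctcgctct
ITGAV: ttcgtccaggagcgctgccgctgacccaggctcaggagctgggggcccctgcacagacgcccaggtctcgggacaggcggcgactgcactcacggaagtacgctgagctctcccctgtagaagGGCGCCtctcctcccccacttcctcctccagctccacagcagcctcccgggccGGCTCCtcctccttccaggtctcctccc
ITGA5: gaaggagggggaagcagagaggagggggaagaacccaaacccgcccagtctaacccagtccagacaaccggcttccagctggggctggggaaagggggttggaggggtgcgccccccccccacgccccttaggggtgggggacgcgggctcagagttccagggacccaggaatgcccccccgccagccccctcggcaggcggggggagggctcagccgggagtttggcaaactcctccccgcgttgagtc
LAMB1: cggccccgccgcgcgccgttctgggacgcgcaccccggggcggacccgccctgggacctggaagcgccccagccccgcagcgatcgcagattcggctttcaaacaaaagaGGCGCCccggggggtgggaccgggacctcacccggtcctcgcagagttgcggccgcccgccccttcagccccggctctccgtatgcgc
The ITGAV stretch held 1 match of each motif, the LAMB1 stretch held 1 GGCGCC, and the ITGA6 and ITGA5 stretches held neither. The ITGAV and LAMB1 stretches were cut at the gene start, and the whole 250-base window of LAMB1 held 2 GGCGCC. A second RefSeq window, not shown, held 1 GGAGCC in ITGA6 and 1 in ITGAV. The counts that follow are of whole windows. Among the 250 bases before each of 35116 RefSeq starts, 16.4% held GGCGCC and 30.6% held GGAGCC. Of 33 such windows of the 26 members listed there, 7 held GGCGCC and 14 held GGAGCC. The palindromic SMAD element GTCTAGAC was in 0.182% of all windows and in 0 of the 33, and GCCNNNGGC, an element of TFAP2 factors, was in 19.8% of all windows and in 8 of the 33. A match is a description of the letters and not a binding site.

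The first question was how integrin and laminin mRNA changed over the 42 h. Of the 38 members, 27 averaged 1 CPM or more over the time series and were tested for a slope against hours, and 11 lay below that minimum. With edgeR's quasi-likelihood test and Benjamini-Hochberg adjustment over all 15976 genes, 10 of the 27 (37.0%) rose and 5 (18.5%) fell, against 19.2% rising and 17.5% falling among all genes. Among laminin chains 6 of 11 tested rose and 1 fell, and among integrin chains 4 of 16 rose and 4 fell. These counts include LAMB3, which reached the minimum only through the 42 h library, and LAMA3, which did so only through the 4 h library. LAMA3 is 1 of the 5 members that fell and the 1 laminin that fell. Without LAMB3, 9 of 26 members (34.6%) and 5 of 10 laminins rose. The median fitted change, the slope times 42 h on the log2 scale, was 0.77 over the members and −0.00471 over all genes, with 1.41 for laminins and 0.31 for integrins. Without LAMB3 it was 0.73 over the members and 1.39 over the laminins. These p-values measure the scatter of single libraries about a line.

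**Figure D1:**
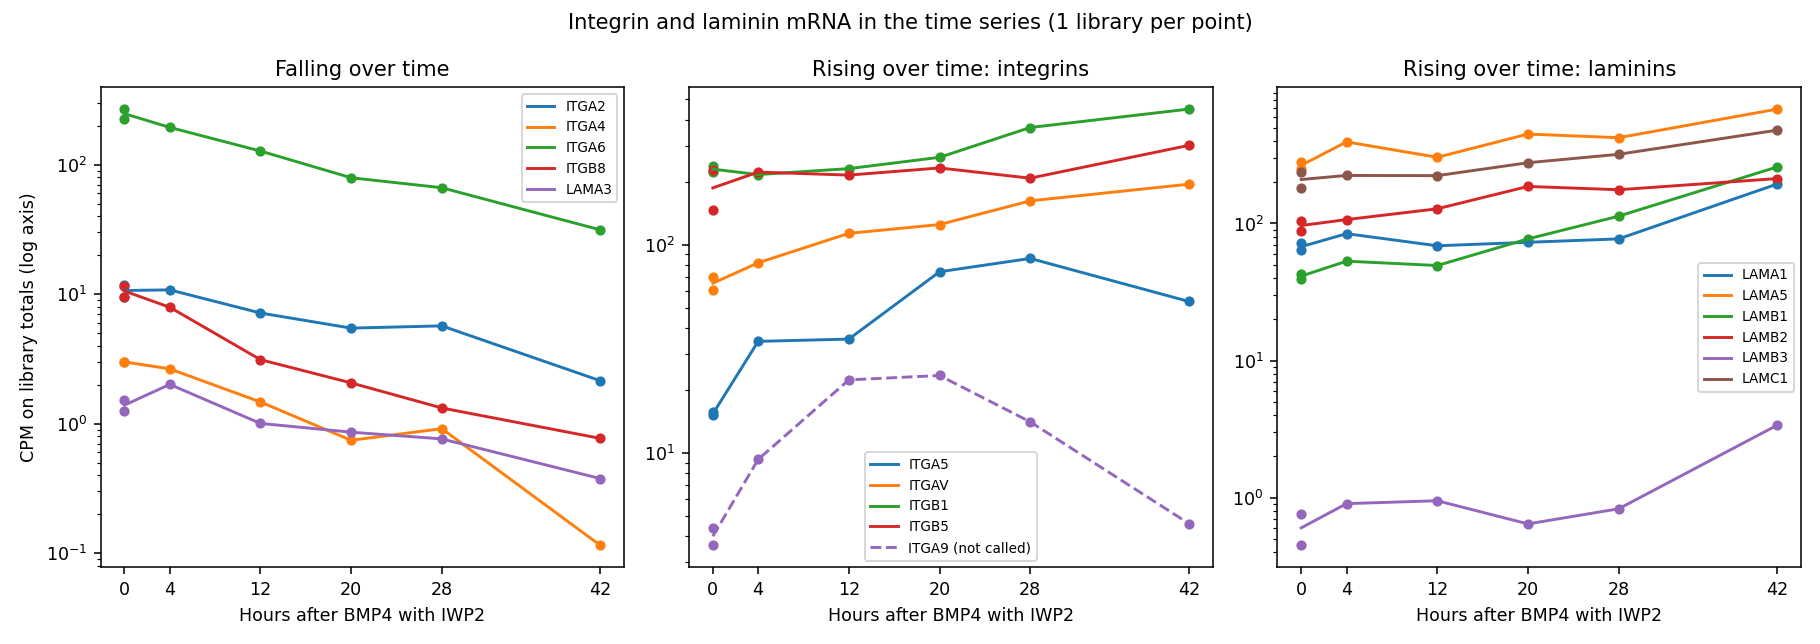
CPM on a log axis against hours after BMP4 with IWP2 for the members called in the time trend and for ITGA9; each point is 1 library and lines join single libraries from the mean of both at 0 h. The falling panel shows ITGA6 declining at every step from 227 and 269 to 31.3 CPM, and the dashed ITGA9 line peaks at 23.6 CPM at 20 h and returns to 4.59.

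ITGA6, ITGA3 and ITGA7 encode the laminin-binding alpha chains. ITGA6 (chr2:172427354-172506459) was at 269 and 227 CPM in the 0 h libraries, then at 194, 127, 79.3, 66.4 and 31.3 CPM at 4, 12, 20, 28 and 42 h. Each time was below the one before, and both 0 h libraries were above all later ones. The fitted change was −2.71 ± 0.20 (SE) on the log2 scale (edgeR adjusted p = 6.96e-05). ITGA3 was at 31.1 and 38.7 CPM at 0 h and at 34.8, 26.3, 31.1, 36.0 and 44 CPM later, with no call (fitted change 0.52 ± 0.25, edgeR adjusted p = 0.13). ITGA7 was between 36.0 and 77.6 CPM, highest at 4 h and lowest at 42 h, and passed no test of a line (edgeR adjusted p = 0.34). ITGB4, the partner of alpha6 in hemidesmosomes, was between 2.81 and 3.71 CPM in the time series.

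ITGAV (chr2:186590010-186680901) encodes the alpha chain of the vitronectin receptors. It was at 70.1 and 60.8 CPM at 0 h and at 82.1, 114, 125, 163 and 196 CPM at the later times. It increased at each step, with no overlap between 0 h and the later libraries, and its fitted change was 1.85 ± 0.16 (edgeR adjusted p = 0.000144). ITGA5 (chr12:54395261-54419266), the alpha chain of the main fibronectin receptor, was at 15.2 and 15.7 CPM at 0 h and at 34.4, 35.3, 74.3, 86.1 and 53.5 CPM later. Most of its increase came by 4 h and between 12 and 20 h, and the level at 42 h was below those at 20 and 28 h. Its fitted change of 2.46 ± 0.61 passed the test (edgeR adjusted p = 0.0151). The call was lost without 0 h replicate 1, when the change was 2.12, and the change was 3.79 without the 42 h library. Here and below, a change given without 42 h is a slope fitted up to 28 h and extended to 42 h.

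ITGB1, the beta chain shared by most of these receptors, was at 238 and 224 CPM at 0 h and at 218, 232, 263, 366 and 449 CPM later. It lay within or near the 0 h range until 12 h and above it from 20 h on, with a fitted change of 1.24 ± 0.20 (edgeR adjusted p = 0.00221). ITGB5, a partner of alphaV, was at 146 and 229 CPM at 0 h and at 224, 216, 234, 209 and 301 CPM later. The 0 h libraries differed by 0.65 on the log2 scale and spanned the levels at 4, 12 and 28 h. Its call (fitted change 0.77 ± 0.24, edgeR adjusted p = 0.0362) was lost without any 1 of 0 h replicate 1, 4 h, 12 h, 20 h or 42 h, without which the change was 0.59, 0.80, 0.76, 0.77 and 0.42.

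ITGB8, another partner of alphaV, which binds latent TGF-beta, was at 11.6 and 9.53 CPM at 0 h and at 7.92, 3.12, 2.06, 1.32 and 0.768 CPM later. It declined at every step, and its fitted change of −3.74 ± 0.40 was the lowest of the members (edgeR adjusted p = 0.000346). ITGA4, which pairs with beta1 and binds fibronectin and VCAM1, was at 3.0 and 2.99 CPM at 0 h and at 2.65, 1.47, 0.743, 0.914 and 0.114 CPM later. The last value rested on 7 counts, against 327 in both 0 h libraries, and the fitted change was −3.67 ± 0.55 (edgeR adjusted p = 0.00170). ITGA2, a collagen-binding alpha chain, was at 11.9 and 9.48 CPM at 0 h and at 10.8, 7.15, 5.46, 5.69 and 2.14 CPM later. It left the 0 h range from 12 h on (fitted change −1.87 ± 0.30, edgeR adjusted p = 0.00221).

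ITGA9, which pairs with beta1 and binds tenascin, had a different course. It was at 4.37 and 3.60 CPM at 0 h and at 9.33, 22.5, 23.6, 14.1 and 4.59 CPM later, so that the last value lay close to the 0 h libraries. Its slope against hours was not called (edgeR adjusted p = 0.57). With hours and hours squared in the model the edgeR adjusted p was 0.000214. In that model 23 of the 27 members were called (85.2%), against 47.7% of all genes. They comprised all 15 from the straight line and 8 more, among them ITGA1, ITGA2B, ITGA3, ITGA7, ITGA9, LAMA2 and LAMA4. Of these, ITGA1 and ITGA2B peaked at 28 h at 24.6 and 3.94 CPM, and LAMA4 went from 1.65 CPM ± 0.13 (SD, n = 2) at the start to 6.48 CPM by 28 h and 2.86 CPM by 42 h. ITGA1 shares 499 exon bases with PELO on the same strand.

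Among the laminin alpha chains, LAMA5 is part of the laminins made by pluripotent stem cells and LAMA1 of the first embryonic basement membranes. LAMA5 was at 283 and 249 CPM at 0 h and at 394, 304, 449, 423 and 683 CPM later. All later libraries were above both at 0 h, though not in steady order (fitted change 1.41 ± 0.23, edgeR adjusted p = 0.00256), and the call was lost without 42 h, with a change of 1.09. LAMA1 was at 71.6 and 63.9 CPM at 0 h, at 84.3, 68.8, 72.9 and 77.2 CPM at 4 to 28 h, and at 194 CPM at 42 h. Its call (1.45 ± 0.33, edgeR adjusted p = 0.0109) therefore rested on the last library, and without it the change was 0.28. LAMA3, the alpha chain of epithelial laminin-332, was at 1.53 and 1.25 CPM at 0 h and at 2.01, 1.0, 0.858, 0.762 and 0.376 CPM later. It was highest at 4 h and below the 0 h libraries from 12 h on (−1.72 ± 0.39, edgeR adjusted p = 0.0114), and this call too was lost without 42 h, with a change of −1.52. Without the 4 h library LAMA3 averaged 0.962 CPM and was not tested.

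LAMB1 (chr7:107923799-108003213), the beta chain of laminin-111 and laminin-511, had the highest fitted change among the 27 members tested. It was at 43.1 and 39.5 CPM at 0 h and at 53.1, 49.4, 77.2, 113 and 259 CPM later. All later libraries were above both 0 h libraries, and the level more than doubled from 28 to 42 h (fitted change 2.75 ± 0.24, edgeR adjusted p = 0.000154). LAMB2, the alternative beta chain, was at 88.2 and 105 CPM at 0 h and at 107, 128, 186, 176 and 213 CPM later. The 4 h value lay just above the 0 h libraries and the rest well above them (1.46 ± 0.19, edgeR adjusted p = 0.000827). LAMC1, the gamma chain of nearly all of these trimers, was at 238 and 181 CPM at 0 h and at 224, 223, 277, 320 and 480 CPM later. The 4 and 12 h values lay within the 0 h range and the later ones above it (1.37 ± 0.21, edgeR adjusted p = 0.00169). LAMB3, the beta chain of laminin-332, was at 0.448 and 0.757 CPM at 0 h, at 0.905, 0.95, 0.644 and 0.829 CPM at 4 to 28 h and at 3.38 CPM at 42 h. It was below 1 CPM in all libraries but the last, which held 207 counts, and averaged 0.755 CPM without it. LAMB3 thus reached the minimum for the test only through the library in which it was high, and its call and fitted change of 2.25 ± 0.53 are given as a description.

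The step from 28 to 42 h differed in size and direction between the chains. Over it the log2 change in CPM was 1.33 for LAMA1, 1.19 for LAMB1, 0.69 for LAMA5 and 0.59 for LAMC1. It was 2.02 for LAMB3. Another 4 laminins went down over this step, with −1.18 for LAMA4, −1.05 for LAMA2, −1.0 for LAMA3 and −0.40 for LAMC3. The median of this step was 0.59 over the 11 laminins, −0.68 over the 16 integrins and −0.17 over all 15976 genes. LAMB3, which reached the minimum only through the 42 h library, is among the 11 laminins. Without LAMB3 their median would lie between the values of LAMB2, 0.27, and LAMC1, 0.59. These are values of 1 library at each time, with no test. ITGA4, ITGA9 and ITGA2 had the lowest values at this step, −2.89, −1.62 and −1.41.

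In a second view without a test, the log2 ratio of CPM at 42 h over the mean at 0 h was taken for 13651 genes averaging 2.5 CPM or more over the 6 times, with 0.01 CPM added. A limit of about 1 SD of these ratios was set on either side. The upper one was passed by 3 of the 23 members (LAMB1 2.65, ITGA5 1.79, ITGAV 1.58) and by 7.49% of all genes. The lower one was passed by 3 members (ITGB8 −3.76, ITGA6 −2.98, ITGA2 −2.31) and by 8.65% of all genes. The median over all genes was −0.20 on library totals, and 0.04 with TMM factors, with which 5 members passed the upper limit. The share of all genes past it with TMM factors is not given here. At 4 h only ITGA9 (1.22) and ITGA5 (1.16) were more than 2-fold above 0 h among the 27, against 6.15% of all genes, and 0 members were more than 2-fold below, against 0.92%.

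Per length, the mixture of chains within each family could be compared. Of the FPKM summed over the 18 ITGA genes, ITGA6 held 42.5% ± 4.6 (SD, n = 2) at 0 h and 31.3%, 21.6%, 13.3%, 11.3% and 6.67% at the later times. ITGAV held 9.08% ± 0.17 at 0 h and 11.4%, 16.3%, 17.9%, 23.2% and 35.8% later. ITGA5 went from 3.22% ± 0.29 to 19.4% by 28 h and 15.2% by 42 h. The FPKM ratio of ITGA6 to ITGAV was thus 4.69 ± 0.59 (SD, n = 2) in the 0 h libraries and 2.75, 1.33, 0.741, 0.484 and 0.186 in the libraries of 4, 12, 20, 28 and 42 h. The order of ITGA6 and ITGAV had turned by 20 h. ITGA7 held 23.3% ± 0.7 at 0 h and had the highest share at 12 and 20 h, 28.3% and 25.6%. The summed FPKM of all ITGA genes changed less, from 134 and 124 at 0 h to 94.8 at 42 h.

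**Figure D2:**
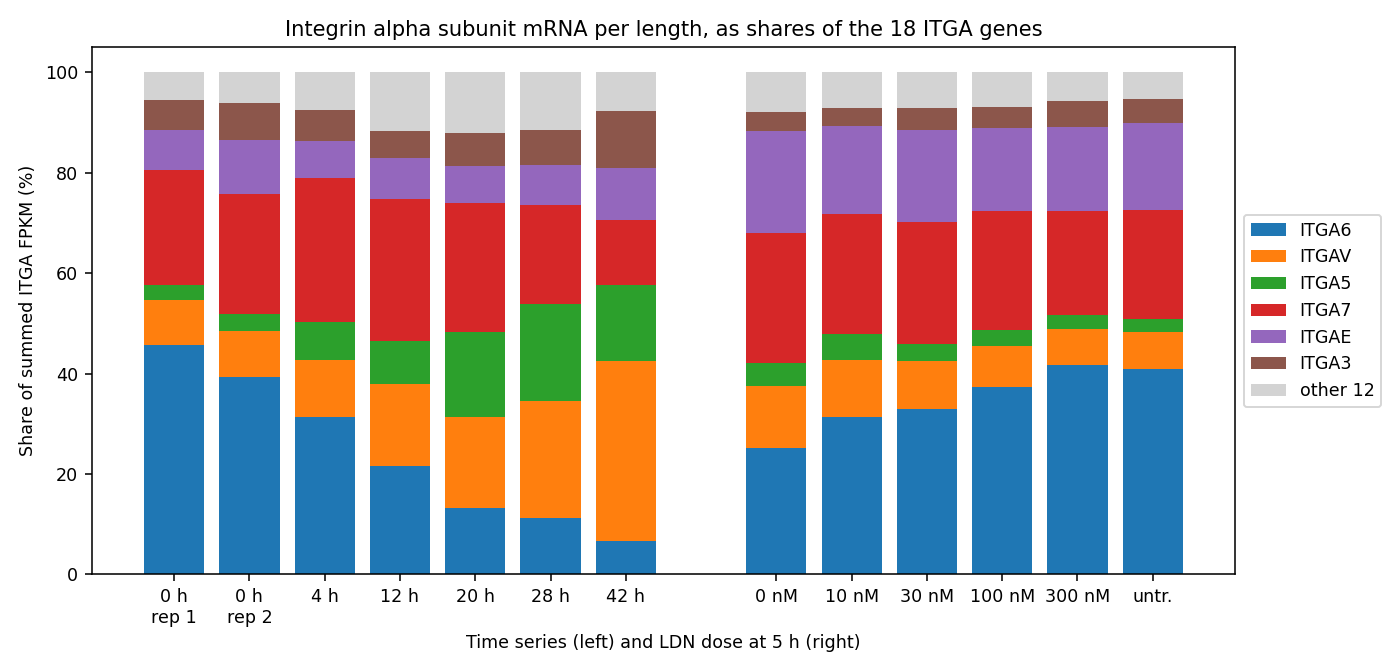
Share of the summed FPKM of the 18 ITGA genes in each of the 13 libraries, as stacked bars in percent; 1 bar is 1 library. ITGA6 shrinks from 45.7% and 39.3% at 0 h to 6.67% at 42 h while ITGAV and ITGA5 widen, and ITGA6 widens from 25.1% to 41.6% as LDN goes from 0 to 300 nM.

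The other families shifted less. ITGB5 held 57.8% ± 10.7 and ITGB1 40.3% ± 10.5 (SD, n = 2) of ITGB FPKM at 0 h, and 52.1% and 47.2% at 42 h, a difference within the spread at 0 h. LAMA5 held between 81.7% and 86.2% of LAMA FPKM in all 13 libraries. LAMB1 rose within its family from 18.3% ± 3.5 at 0 h to 41.5% at 42 h, as LAMB2 went from 81.5% ± 3.5 to 57.9%. In the untreated library at 5 h these shares were 43.9% and 55.1%, so such a mixture was not limited to 42 h. LAMC1 held 72.3% ± 5.6 at 0 h and 83.4% at 42 h, and LAMC3 went from 20.5% ± 4.8 to 10.5%. Summed FPKM from the mean at 0 h to 42 h went from 66.3 to 142 for LAMA, from 61.5 to 143 for LAMB and from 40.9 to 77.1 for LAMC genes.

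The dose response asked which members depended on the strength of BMP signaling at 5 h. Of the 25 members averaging 1 CPM or more over the 5 libraries with BMP4, 4 rose with the LDN dose step (16.0%) and 4 fell (16.0%), against 10.4% and 10.9% of 14907 genes tested. All 4 that fell were integrins, and 2 integrins and 2 laminins rose. The median fitted change from 0 to 300 nM was 0.04 over the members and −0.00273 over all genes.

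Of the chains that fell with LDN, ITGA9 was at 14.5, 12.2, 10.7, 7.59 and 5.91 CPM at 0, 10, 30, 100 and 300 nM, and at 5.32 CPM in untreated cells. It dropped at every dose and ended near the untreated level, and its fitted change was −1.27 ± 0.13 (edgeR adjusted p = 2.34e-05). ITGAV was at 96.4, 84.7, 71.5, 64.6 and 60.8 CPM over the same doses and at 62.6 CPM untreated. It also fell at every dose, to just under the untreated level (−0.68 ± 0.05, edgeR adjusted p = 2.66e-06). ITGA5 was at 22.6, 21.9, 17.9, 16.5 and 14.5 CPM and at 11.4 CPM untreated, so that the highest dose stayed above untreated cells (−0.67 ± 0.09, edgeR adjusted p = 0.000244). ITGB1 was at 441, 403, 392, 395 and 382 CPM and at 370 CPM untreated. Most of its small change, −0.16 ± 0.04 (edgeR adjusted p = 0.0167), lay between 0 and 10 nM, and the call was lost without the library at 0 nM, when the change was −0.09, or at 300 nM, when it was −0.18. Here and below, a change given without 0 or 300 nM is a slope over the other doses, extended to the full range.

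Of the chains that rose, ITGA6 was at 150, 180, 208, 233 and 259 CPM from 0 to 300 nM and at 250 CPM in untreated cells. It increased at each dose and reached the untreated level between 100 and 300 nM (0.79 ± 0.05, edgeR adjusted p = 3.06e-07). The FPKM ratio of ITGA6 to ITGAV was 2.03, 2.74, 3.52, 4.51 and 5.71 over the doses and 5.58 in untreated cells. ITGA3 was at 21.2, 22.1, 23.3, 24.2 and 25.0 CPM and at 25.3 CPM untreated, a small increase at every step (0.25 ± 0.08, edgeR adjusted p = 0.0361). LAMB1 was at 57.7, 63.0, 62.1, 66.4 and 67.7 CPM and at 63.1 CPM untreated (0.23 ± 0.05, edgeR adjusted p = 0.0102), and LAMA5 at 223, 237, 230, 240 and 249 CPM and at 228 CPM untreated (0.15 ± 0.04, edgeR adjusted p = 0.0251). For both laminins the untreated level lay inside the range of the doses. The calls of ITGA3, LAMB1 and LAMA5 were lost without the library at 0 nM, with changes of 0.24, 0.17 and 0.12, and without that at 300 nM, with changes of 0.28, 0.25 and 0.14. Those of ITGA3 and LAMA5 were also lost without 100 nM (0.25 and 0.16), and that of ITGA3 without 10 nM (0.25).

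**Figure D3:**
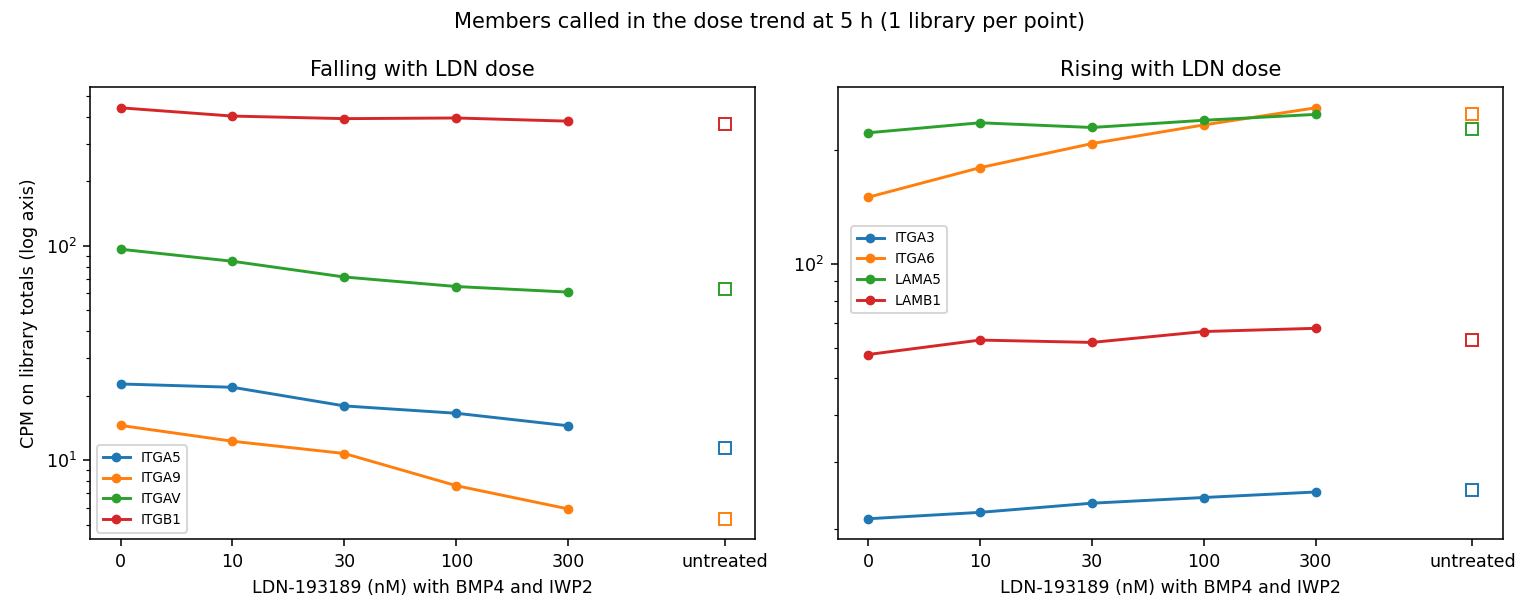
CPM on a log axis for the 8 members called in the dose trend at 5 h, against the LDN dose in nM in equal steps; filled points are single libraries with BMP4 and IWP2 and open squares the untreated library. ITGA9, ITGAV and ITGA5 fall and ITGA6 rises at every dose, while ITGB1, ITGA3, LAMA5 and LAMB1 change little.

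The remaining members called over time passed no test against dose. ITGB8 was at 2.44, 2.21, 2.71, 3.86 and 2.90 CPM from 0 to 300 nM and at 4.42 CPM untreated. ITGA4 was at 2.71, 2.38, 2.71, 3.15 and 3.41 CPM and at 2.56 untreated. ITGA2 was at 8.42, 10.7, 9.65, 10.3 and 10.9 CPM and at 12.1 untreated. In ITGA2 and ITGB8 all doses lay below the untreated library, while ITGA4 spanned it. ITGB5 was at 236, 217, 219, 219 and 216 CPM and at 209 untreated. LAMA1 was at 64.1, 62.2, 67.8, 65.7 and 67.8 CPM and at 61.4 untreated. LAMC1 was at 204, 200, 202, 204 and 206 CPM and at 195 untreated. These 3 genes were nearly level over the doses, with the untreated library lowest. LAMA3 was at 1.64, 1.82, 1.63, 2.35 and 2.26 CPM and at 2.44 untreated. LAMB3, below the minimum here, was at 0.905, 0.559, 1.11, 0.675 and 0.875 CPM and at 0.641 untreated. LAMB2 was at 108, 112, 110, 106 and 103 CPM, and at 74.4 untreated. All 5 libraries with BMP4 thus exceeded the untreated one in LAMB2, at 300 nM LDN as well (log2 ratio 0.47).

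Against the untreated library, the log2 ratio of the library with BMP4 and no LDN was 1.45 for ITGA9, the only one of the 25 members past 2-fold, and 0.99 for ITGA5, against 6.48% of all genes higher and 2.09% lower. It was 0.62 for ITGAV and −0.73 for ITGA6, and 0 members were more than 2-fold lower. The median ratio over all genes was 0.11. With 300 nM LDN the ratios to untreated cells were 0.15 for ITGA9, 0.34 for ITGA5, −0.04 for ITGAV and 0.05 for ITGA6. Of the 25 members, 12 were lower in the untreated library than in any library with BMP4, 4 were higher and 9 lay inside the range. The shares of 48.0% lower and 16.0% higher compare with 45.3% and 25.4% of all 14907 genes, and the untreated library had the lowest total.

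The time series and the dose response share no library. Of the 25 members tested in both, 6 were called in both, 8 over time only, 2 over dose only and 9 in neither. ITGA6 fell over time and rose with LDN, and ITGAV, ITGA5 and ITGB1 rose over time and fell with LDN. LAMB1 and LAMA5 rose in both. Opposite signs thus occurred in 4 of 6 members, and in 78.3% of the 1334 genes of all kinds called in both. At 4 h after BMP4, LAMB1 and LAMA5 were above the 0 h mean by 0.36 and 0.57 on the log2 scale, while at 5 h their ratios to untreated cells were −0.13 and −0.04. The RNA kit and the library preparation differed between these experiments.

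**Figure D4:**
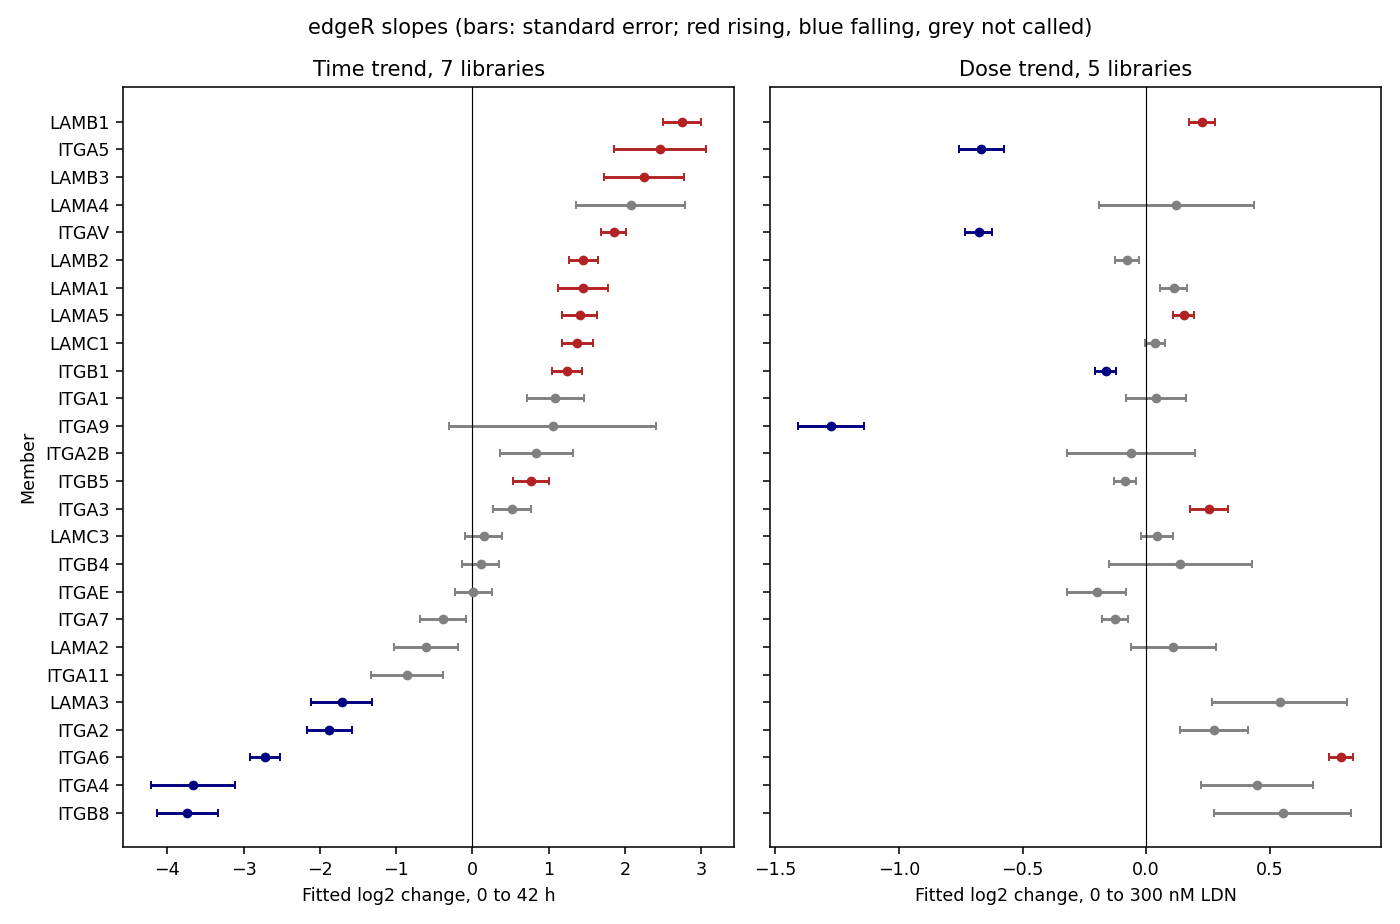
Fitted log2 change over 42 h (left) and from 0 to 300 nM LDN (right) for the members drawn, with standard errors as bars; red is rising, blue falling and grey not called. ITGA6 lies at −2.71 and 0.79, ITGAV at 1.85 and −0.68, and LAMB1 at 2.75 and 0.23.

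All but LAMB4 of the 11 members below the minimum in both experiments were integrins. Below 0.5 CPM in all 13 libraries were 7 members, and 6 of 7 leukocyte and platelet markers were under 1 CPM throughout. ITGAL, ITGAM, ITGAX, ITGAD and ITGB2, chains of leukocyte integrins, reached at most 0.557 CPM. ITGB3, the other classic partner of alphaV, went from 0.342 and 0.238 CPM in the 0 h libraries to 2.18 CPM by 28 h and 0.915 CPM by 42 h. ITGB3 shares 2266 of its 6829 exon bases with a gene without a symbol on the same strand, which reached 0.694 CPM in the time series. ITGB6, an epithelial partner of alphaV, had 3 counts in both 0 h libraries and 139 at 42 h, a CPM ratio of 82.7 with an exact 95% interval of 27.7 to 406. It was at no more than 0.102 CPM at the times between and at 0 counts in the 6 libraries at 5 h. ITGA8, the nephronectin receptor, had 0 counts at 0 h and 20 at 42 h, a CPM ratio of 11.9 when set against a floor of 3 counts over both 0 h libraries, with an exact 95% lower limit of 8.82. Intervals and floors cover counting error only. ITGAE, which was at 4.47 to 5.96 CPM in the time series and 9.17 to 11.7 CPM at 5 h, shares 427 exon bases with HASPIN on the other strand, and ITGB7 shares 1881 of its 4451 exon bases with ZNF740. Whether counting used the strand is not given in the sources used here, and without it the reads of such pairs cannot be told apart. LAMA5 shares 244 of 14291 exon bases with ADRM1, and LAMB1 shares 300 of 18592 with DLD.

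Genes of the partners of integrins and laminins were taken from fixed lists, and their counts can be read against the shares of all genes given above for each trend. The median fitted change over time was 0.47 for other matrix ligands, 0.54 for other basement membrane genes, 1.0 for adaptors and 0.98 for hemidesmosome genes. It was 0.61 for other laminin receptors and 0.63 for latent TGF-beta and its carriers. For netrins it was −2.76, from only 2 genes tested. With LDN these medians were, in the same order, −0.04, 0.10, 0.03, −0.01, −0.01, −0.18 and 0.49, the last from the 1 netrin tested. Of 18 ligands tested other than laminins, 8 rose and 4 fell over time. FN1, fibronectin, was at 123 and 95.0 CPM at 0 h, at 110 and 160 CPM at 4 and 12 h, and at 964, 2264 and 5617 CPM from 20 to 42 h (fitted change 6.44 ± 0.51, edgeR adjusted p = 0.000104). THBS2, a thrombospondin, went from a mean of 64.7 CPM to 0.294 CPM (−7.87 ± 0.45, edgeR adjusted p = 2.48e-05). With LDN 4 of 18 rose, with EDIL3, an alphaV ligand, at 18.9 CPM without LDN and 26.9 CPM at 300 nM. Another 4 fell, with POSTN, periostin, at 4.73 and 1.36 CPM.

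Of 16 other basement membrane genes tested, 6 rose and 2 fell over time. NPNT, nephronectin, the ligand of ITGA8, went from 0.401 CPM to 5.16 CPM (4.00 ± 0.35, edgeR adjusted p = 0.000144). COL4A1, a chain of type IV collagen, went from 108 to 41.8 CPM (−1.30 ± 0.19, edgeR adjusted p = 0.00157), the opposite direction to LAMB1 and LAMC1. With LDN 5 of 16 rose and 1 fell. The first group had SMOC2 at the top, from 1.98 to 4.77 CPM, and FREM1 was the 1 that fell, from 6.78 to 2.90 CPM.

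Inside the cell, 15 of 26 integrin-linked adaptors rose over time and 3 fell. NEDD9, a docking scaffold at focal adhesions, went from 7.53 to 50.4 CPM (4.02 ± 0.64, edgeR adjusted p = 0.00233), and FERMT1, kindlin-1, an integrin activator, from 26.7 to 10.7 CPM. With LDN 4 of 24 rose and 3 fell, among them TNS3, a tensin, from 25.0 to 30.8 CPM, and LIMS2, a partner of integrin-linked kinase, from 4.59 to 2.62 CPM. Of 7 genes for hemidesmosomes and partners of the laminin-binding integrins, 4 rose over time and 1 fell. KRT8, a keratin of simple epithelia, went from 375 to 7033 CPM, while DST, the plakin dystonin, went from 314 to 134 CPM. With LDN 0 of 7 rose and 2 fell, with PLEC, plectin, at 586 CPM without LDN and 351 CPM at 300 nM.

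Receptors for laminin other than integrins numbered 12 tested, of which 7 rose and 3 fell over time, and 2 rose and 1 fell with LDN. The syndecan SDC4 went from 42.7 to 249 CPM and SDC1 from 67.5 to 8.51 CPM over time. With LDN, SDC1 went from 39.7 to 70.8 CPM and SDC2 from 56.3 to 47.6 CPM. Of 8 genes tested for latent TGF-beta, which alphaV integrins bind, and its carriers, 2 rose and 1 fell over time. LRRC32, which holds latent TGF-beta at the surface, went from 1.64 to 85.2 CPM as ITGB8 declined (5.74 ± 0.76, edgeR adjusted p = 0.000980). NRROS, a like protein of myeloid cells, went from 3.26 to 1.06 CPM. With LDN 0 of 7 rose and 1 fell, from 19.7 to 13.5 CPM. It was TGFB1, which encodes TGF-beta1 itself and not a carrier. Of 2 netrins tested over time 1 fell, NTN1, from 6.35 to 1.42 CPM, and the 1 netrin tested against LDN was not called.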

How the data were processed

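RNA of RUES2 GFP::SMAD4 cells was sequenced in 13 libraries, with ribosomal RNA depletion for the time series and polyA selection for the dose response. The deposited counts are expected counts from RSEM 1.3.3, whole as deposited, which the authors obtained after trimming with Cutadapt and alignment to GRCh38 by STAR 2.7.8a. The FPKM tables hold values scaled by the authors to depth and gene length. The annotation release and the strand setting are not given in the sources used here.

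CPM were computed on library totals. Slopes were fitted against hours (7 libraries) and against the LDN dose step (5 libraries) with edgeR 4.0.16 (quasi-likelihood test, TMM, a mean of at least 1 CPM, Benjamini-Hochberg adjustment over all genes, threshold 0.05). Alternatives used DESeq2 1.42.0, limma 3.58.1 on log2(FPKM + 0.1), other scalings, minimums and doses, and each library left out. The edgeR fits were also run on simulated counts with straight-line trends and a fixed dispersion, unlike the curved courses of some members. The result of that run is not reported here. Members that reached the minimum through 1 library are named beside their values. The 5 features outside the human genome stayed out of the tests. R 4.3.3 and Python 3.11.15 were used.

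Named with a value in every library were the members called in either trend and the member of each family with the highest mean FPKM. ITGA7 and other members are described by ranges, and values of further members were chosen after they were seen. Of the other gene lists, counts and the called gene with the largest slope in each direction are given. Of the members tested, 1 is counted but its own values are not reported here. The members and lists were chosen with earlier results of these data known.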

Additional observations from a re-analysis of the deposited data

Results flagged for a closer look

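LAMA3 moved in opposite directions in the early comparisons of the time series and the dose response. Its log2 ratio was 0.53 at 4 h over the mean at 0 h and −0.57 at 5 h with BMP4 over untreated cells. The difference between these values was not tested, since each later condition has 1 library, and LAMA3 was at 1.25 to 2.44 CPM in the libraries compared. It reached the minimum in the time series only through the 4 h library, in which it was highest, and averaged 0.962 CPM without that library. Its ratio at 4 h is therefore given as a description. The experiments also differed in RNA kit and library preparation, whose part in the difference was not tested.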

How the results depend on the processing

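Over the alternatives, 9 of 15 members called over time and 3 of 8 called over dose (ITGA6, ITGA9 and ITGAV) passed in every one in which they were tested, and none changed sign. ITGA4, LAMA3 and LAMB3 lay below the minimum of 2.5 CPM, as did LAMA3 without 4 h and LAMB3 without 42 h below that of 1 CPM. Besides the left-out libraries given above, limma on FPKM lost LAMA3, LAMB3 and ITGB5 over time and ITGA3, ITGA5, ITGB1, LAMA5 and LAMB1 over dose, library totals or the order of the times lost ITGB5, log10 dose lost ITGA3, ITGB1, LAMA5 and LAMB1, the untreated library added lost the last 3 of these, and DESeq2 lost ITGA3; the cause was not tested. Members rising over time were 16 with hours squared, where 3881 of all 15976 genes rose. Members falling were 3 with a minimum of 2.5 CPM, which tests fewer genes and where 2440 of all genes fell. Members rising with LDN were 1 with limma, 1 with log10 dose over 4 libraries and 2 with the untreated library added, and members falling were 2 with limma. With 1 library left out, members ranged from 8 to 11 rising and 4 to 6 falling over time, and from 1 to 4 rising and 3 to 4 falling with LDN; the lowest count of rising members came without 0 nM or 300 nM. Members past the upper limit at 42 h were 5 with TMM or DESeq2 size factors, 7 with no minimum and 2 to 4 with either 0 h library left out, and those past the lower one were 5 with no minimum. Members higher at 4 h were 7 with no minimum and 2 to 3 without either 0 h library. Members higher with BMP4 at 5 h were 2 on FPKM and 7 with no minimum, and 1 was lower on FPKM. For these ratios at 42, 4 and 5 h, the shares of all genes under the other settings are not given here. The member counts under those settings therefore cannot be set against a background.

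Over all genes, 3072 rose and 2793 fell over time, 2121 and 4069 on library totals, 2102 and 3750 with limma, and 1872 and 1387 without 42 h. With LDN 1556 rose and 1624 fell, 415 and 692 with limma; the rising count was 913 with log10 dose, 1001 with the untreated library, 874 without 0 nM and 994 without 300 nM.

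No paired analysis was possible because only 0 h has more than 1 library. Later times and doses have no replicate, so slopes rest on scatter about a line. Members under 1 CPM on average were tested only with no minimum. In that setting 14 of all members rose and 5 fell over time, and 4 rose and 5 fell with LDN. Among all genes, 3791 rose and 3049 fell over time, and 1757 rose and 1674 fell with LDN. The numbers tested in that setting are not given here.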

Other observations

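The baselines of both experiments, prepared with different kits and library types, are set side by side without a test. The untreated 5 h library and the 0 h libraries had like levels of ITGA6 (250 against 269 and 227 CPM) and ITGAV (62.6 against 70.1 and 60.8 CPM). ITGB1 was higher in the untreated library, at 370 against 238 and 224 CPM, and ITGB8 lower, at 4.42 against 11.6 and 9.53 CPM. Over 15976 genes the log2 ratio of the untreated library to the 0 h mean had a median of −0.12 and an SD of 1.21.

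In FPKM, LAMB1 held 43.9% of the summed LAMB genes in untreated cells, against 21.7% to 26.5% over the 5 libraries with BMP4, a share near the 41.5% at 42 h. In CPM, LAMB1 was inside the range of those libraries (63.1 CPM) and LAMB2 below it (74.4 CPM), and the untreated library had the lowest total count.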
